A study of Homo sapiens with 8 samples.

Results

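Deubiquitinases of the ubiquitin-specific protease (USP) family were followed through a pooled knockout screen by 130 sgRNAs that targeted 13 genes, out of 7855 sgRNAs and 779 genes in the screen. Members were every sgRNA whose gene symbol begins with USP and a digit, with USP22 left out, together with the sgRNAs of MYSM1. The 13 genes, each with 10 sgRNAs, were USP3, USP7, USP11, USP12, USP15, USP16, USP17L2, USP21, USP36, USP44, USP46, USP49 and MYSM1. MYSM1 is not a USP by its fold: it is a JAMM-domain metalloprotease that removes ubiquitin from histone H2A. USP27X, USP51, USP48 and USP1, other deubiquitinases of chromatin, had no sgRNAs in these tables.

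The cells were T1-160, a Taxol-resistant derivative of the triple-negative breast cancer line SUM159PT, and every group carried Cas9 and the EPIKOL lentiviral library of sgRNAs against chromatin regulators. The libraries fell into 3 groups: AP, the cells collected after puromycin selection (replicates 1 and 3), DMSO (n = 3 libraries) and 160 nM Taxol (n = 3 libraries), the last 2 grown for 16 population doublings. Per the paper, puromycin was given together with verapamil, an ABC transporter inhibitor, before the cells were divided into DMSO and Taxol. The paper also states that T1-160 cells were maintained in 160 nM Taxol while cultured. All libraries came from 1 resistant line, and the labels do not say that replicates were separate cultures, so that p-values measure only the spread between these samples, which may be technical. An sgRNA that becomes more abundant marks cells whose share of the culture rose, and one that becomes rarer marks cells whose share fell. Counts are relative, so a smaller share need not mean that cells were lost, and a change need not come from the cut.

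Ubiquitin is attached to histones H2A and H2B by dedicated ligases, and deubiquitinases take it off again. Monoubiquitin on H2A is a mark of Polycomb repression and of DNA damage sites, while monoubiquitin on H2B accompanies transcription. USP enzymes are cysteine proteases, and many of them also act on proteins other than histones. USP7, for example, stabilises MDM2 and p53, and USP36 is a nucleolar enzyme linked to ribosome formation and to the stability of MYC.

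The sgRNAs of these genes were read in all libraries, least deeply in Taxol 2 and 3, with medians of 164 and 207 reads. Library depth was 2045984 to 11771417 reads. Before growth, the 130 sgRNAs had 79 to 3193 reads in AP 1 (median 898.5) and 77 to 2314 reads in AP 3 (median 447). After growth, the lowest count in any library was 23 reads, for the USP21 sgRNA epikol_v2_6895 in Taxol 3, and Taxol 3 was the only library with member sgRNAs under 30 reads (2 of 130). No member sgRNA was therefore lost from any library. The 130 sgRNAs make up 1.66% of all sgRNAs and held 1.63% and 1.56% of the normalised counts in AP 1 and AP 3. Their share was 1.58%, 1.90% and 1.63% in DMSO 1, 2 and 3. It was 2.34%, 1.38% and 1.74% in Taxol 1, 2 and 3. Taxol 1 stood apart through a single MYSM1 sgRNA, epikol_v2_3904, which alone held 1.04% of that library; the members without it held 1.30%. The Taxol libraries were also more uneven as a whole, with 10.6%, 6.23% and 8.91% of the counts in their 10 most abundant sgRNAs, against at most 2.80% in the others.

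Taxol was set against DMSO to find knockouts that made resistant cells more or less able to grow in the drug. None of the 13 genes was called lower or higher at an adjusted p under 0.05 by limma on gene means, the mean over the sgRNAs of a gene of log2(normalised count + 1). Among all 779 genes 0% were called lower and 0.128% higher, the last being USP22 alone. With the replicate number as a block 3 genes were called, and again no member. At an unadjusted p under 0.05 USP15 alone was lower, against 1.54% of all genes, and no member was higher, against 4.62%. By robust rank aggregation (RRA), which asks whether the sgRNAs of a gene crowd at an end of the ranking, no member passed an adjusted p under 0.05 (0.257% of all genes lower and 0.128% higher). At an unadjusted p under 0.05 RRA listed USP46 as lower (background 4.75%) and USP3 as higher (6.55%). In none of the 13 genes did the 3 Taxol libraries lie fully below or above the 3 DMSO libraries, where 4.49% and 6.29% of all genes did. The log2 difference of the 13 genes had a median of -0.07 (range -0.53 to 0.44), beside 0.03 for all genes. Below 0 were 7 members (44.9% of all genes) and above 0 were 6 (55.1%).

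DMSO against AP shows which sgRNAs became rarer or more abundant while the cells grew without the drug. By limma no member was called at an adjusted p under 0.05, while 1.41% of all genes were called lower and 0.77% higher. Unadjusted, USP7 was lower (background 8.73%), and MYSM1 and USP17L2 were higher (background 12.5%). RRA called no member after adjustment, and 2.05% and 0.128% of all genes as lower and higher. Unadjusted it listed USP7 as lower (background 11.8%), and USP46 and USP17L2 as higher (background 8.09%). USP7 was the only member with every DMSO library under the AP values (background 14.1%). They lay above AP for USP3, USP46, USP49, MYSM1 and USP17L2, 5 of 13 genes against a background of 29.3%. The median log2 difference was 0.21 (range -0.69 to 0.77), beside 0.15 for all genes.

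Taxol against AP combined growth and drug. No member was called by limma after adjustment, where 0% of all genes were called lower and 0.128% higher. Unadjusted, MYSM1, USP17L2 and USP3 were higher (3 of 13 genes, background 16.9%) and none was lower (6.29%). RRA called none after adjustment (4.62% and 1.41% of all genes as lower and higher) and listed MYSM1 and USP3 as higher unadjusted (background 8.34%). All Taxol libraries lay above AP for MYSM1, USP17L2, USP3, USP11, USP46 and USP49 (6 of 13, background 32.3%) and below AP for USP7 (background 14.5%). The median was 0.29 (range -0.29 to 0.93), beside 0.20 for all genes. The comparisons share libraries and are not independent of each other.

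The sign of many of these small differences depends on what is taken as 0. The non-targeting sgRNAs, which cut no gene, themselves stood higher in DMSO than in AP by a median of 0.43 on the log2 scale over 80 sgRNAs, and higher in Taxol than in AP by 0.68. On the deposited scaling 11 of the 13 genes were above 0 in DMSO against AP (63.3% of all genes) and 2 below (36.7%). For the centring, the level of the median non-targeting sgRNA was taken in each library, which puts the shift between groups at 0.31 rather than at the median of the single sgRNA differences, 0.43. Set against 0.31, 5 were above and 8 below, and of all genes 28.4% were above. In Taxol against AP the split went from 9 above and 4 below to 3 above and 10 below, the 3 being MYSM1, USP17L2 and USP3. In Taxol against DMSO it went from 6 above to 4 above (MYSM1, USP3, USP7 and USP11). This centring moved the log2 difference of every gene by -0.17 in Taxol against DMSO, by -0.31 in DMSO against AP and by -0.53 in Taxol against AP. USP7 was below and MYSM1 and USP17L2 above AP on either scale, in both comparisons with AP.

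USP7 had the lowest gene mean difference of the members in DMSO against AP and in Taxol against AP. By limma-voom on summed reads it was at -0.66 and -0.69, where USP21, USP44 and USP36 were lower in Taxol against AP. Limma-voom scaled each library to its total reads, so its zero is not that of the deposited scaling. The mean log2 level of USP7 was 9.23 and 9.37 in AP 1 and 3, and 8.30, 9.02 and 8.51 in DMSO 1, 2 and 3, on the scale of the DMSO and AP table. Each DMSO level was thus below the AP levels, with DMSO 2 the closest. The log2 difference was -0.69 ± 0.24 (SE), a ratio of 0.619, with an adjusted p of 0.139 by limma. RRA gave an exact p of 0.00124 and an adjusted p of 0.0537, just over the threshold. Without DMSO 2, 33 of all 779 genes were called, USP7 among them, at -0.90 with an adjusted p of 0.0296. Of its 10 sgRNAs 9 were lower in DMSO, with a median of -0.88.

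The values of single USP7 sgRNAs follow. The sgRNA epikol_v2_6970 had 1536 and 1488 normalised counts in AP 1 and 3, and 1121, 576.4 and 443.8 in DMSO 1, 2 and 3. For epikol_v2_6969 the counts were 946.2 and 849.0 in AP, and 470.7, 505.0 and 318.6 in DMSO. The sgRNA epikol_v2_6964 had 694.8 and 631.7 counts in AP, and 450.7, 252.9 and 309.1 in DMSO. In these 3 sgRNAs of USP7 the libraries did not overlap; over all sgRNAs this was so, in the lower direction, for 12% and over the members for 10 of 130. The steepest difference among USP7 sgRNAs was -1.25, for epikol_v2_6967, with counts of 337.9 and 293.3 in AP and 90.9, 314.2 and 79.3 in DMSO, so that DMSO 2 overlapped AP. The sgRNA epikol_v2_6968 was the exception at 0.53.

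Under Taxol the USP7 levels were also under those of AP. They were 8.84 and 8.99 in AP 1 and 3, and 8.78, 8.34 and 8.76 in Taxol 1, 2 and 3, on the scale of the Taxol and AP table. The Taxol libraries were all below AP, but Taxol 1 and 3 by little. The log2 difference was -0.29 ± 0.22 (SE, adjusted p = 0.374), and 7 of 10 sgRNAs were lower. Centred on the non-targeting sgRNAs it was -0.81 with an adjusted p of 0.0228, and USP7 was then among the 154 of all 779 genes called. The lowest member sgRNA of this comparison was the USP7 sgRNA epikol_v2_6964, with 530.3 and 484.5 counts in AP and 154.3, 246.7 and 186.9 in Taxol, a log2 difference of -1.39 ± 0.47 (SE, adjusted p = 0.737). Directly against DMSO, USP7 was at 8.67, 8.23 and 8.64 in Taxol 1, 2 and 3 and at 7.89, 8.5 and 8.08 in DMSO 1, 2 and 3. DMSO 2 lay above Taxol 2, and the difference of 0.36 ± 0.22 (SE, adjusted p = 0.855, 95% interval -0.10 to 0.81) was not beyond the spread between libraries. Of its 10 sgRNAs 6 were higher in Taxol, and the largest positive difference, 1.26, was that of epikol_v2_6969.

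The other members listed by their action on H2B, USP36, USP44 and USP49, showed no shift that all libraries shared in Taxol against DMSO. USP44, a regulator of the mitotic checkpoint as well as of H2B ubiquitin, had levels of 8.18, 9.20 and 8.08 in DMSO 1, 2 and 3 and of 8.18, 8.11 and 8.27 in Taxol. DMSO 2 stood far above the other DMSO libraries, and the Taxol libraries were close to the latter. The difference was -0.30 ± 0.24 (SE, adjusted p = 0.883), and without DMSO 2 it was 0.05. USP36 was also high in DMSO 2, at 8.09, 8.89 and 8.03 in DMSO and 7.94, 8.38 and 8.35 in Taxol. Here Taxol 2 and 3 lay above DMSO 1 and 3. The USP36 difference was -0.11 ± 0.23 (SE), and without DMSO 2 it was 0.17. USP49 differed by -0.07 ± 0.24 (SE). By limma-voom on reads summed per gene these differences were -0.97 for USP44, -1.04 for USP36 and -0.48 for USP49, with adjusted p of 0.376, 0.376 and 0.525. These values are scaled to total reads, which sets another zero, and abundant sgRNAs weigh most in a sum. In DMSO 2, 4 sgRNAs of USP36 were at least 4-fold above either other DMSO library. Against AP, USP49 was higher in all DMSO libraries, at 9.40, 9.69 and 9.23 beside 9.02 and 9.05 in AP 1 and 3, a difference of 0.40 ± 0.21 (SE, adjusted p = 0.289). In the same comparison USP36 and USP44 differed by 0.15 ± 0.27 and 0.17 ± 0.29 (SE), with DMSO 2 above and DMSO 1 and 3 within or below the AP values. Without DMSO 2 these became -0.15 and -0.22.

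The lowest member sgRNA in Taxol against DMSO belonged to USP44. Its counts for epikol_v2_6936 were 894.6, 2779 and 1013 in DMSO 1, 2 and 3, and 261.7, 359.7 and 453.4 in Taxol 1, 2 and 3. The groups did not overlap, as for 4.26% of all sgRNAs in the lower direction. The log2 difference was -1.96 ± 0.66 (SE), which ranked 14 from the lowest of all 7855 sgRNAs (adjusted p = 0.967). The other USP44 sgRNAs ran from -1.29 to 1.08. The same sgRNA, epikol_v2_6936, was the fourth highest member sgRNA in DMSO against AP, at 1.51, with 834.7 and 510.6 counts in AP and 1198, 3977 and 1363 in DMSO. These 2 comparisons share the DMSO libraries, and in Taxol against AP it was at -0.40 ± 0.53 (SE). The lowest member sgRNA in DMSO against AP was again from USP44. It was epikol_v2_6938, with 841.5 and 523.7 counts in AP and 227.9, 236.9 and 236.2 in DMSO, a difference of -1.50 ± 0.63 (SE, adjusted p = 0.727). The 10 USP44 sgRNAs thus spanned -1.50 to 1.51 during growth in DMSO, although they share their target.

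MYSM1, among the enzymes of H2A, was the highest of all members in Taxol against AP. Its levels were 8.30 and 8.35 in AP 1 and 3, and 9.91, 8.53 and 9.32 in Taxol 1, 2 and 3. All Taxol libraries were above AP, Taxol 2 by little and Taxol 1 by the most. The difference was 0.93 ± 0.31 (SE), a ratio of 1.90, with an adjusted p of 0.134 by limma. RRA gave an exact p of 0.00165 and an adjusted p of 0.0805. Of 10 sgRNAs 8 were higher, and 5 of them by at least 1 log2 unit (57.8% and 14.9% of all sgRNAs). Without Taxol 2 the difference was 1.29, and MYSM1 was among the 9 of all 779 genes called (adjusted p = 0.0402). Without Taxol 1 the difference was 0.60. In DMSO against AP, MYSM1 stood at 8.69 and 8.73 in AP, and at 9.28, 9.23 and 9.07 in DMSO 1, 2 and 3. The DMSO libraries were close to each other and all above AP, and the difference was 0.49 ± 0.21 (SE, adjusted p = 0.194), with 8 of 10 sgRNAs higher. Centred on the non-targeting sgRNAs, MYSM1 differed by only 0.18 in DMSO against AP and by 0.40 in Taxol against AP. In Taxol against DMSO the levels were 9.80, 8.42 and 9.19 in Taxol and 8.86, 8.72 and 8.64 in DMSO, so that Taxol 2 lay below all DMSO libraries. The difference of 0.40 ± 0.26 (SE, adjusted p = 0.855) ranged from 0.07 without Taxol 1 to 0.76 without Taxol 2.

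Without its sgRNA with the largest change, MYSM1 differed by 0.68 in Taxol against AP and by 0.14 in Taxol against DMSO, and by limma-voom on recovered reads, summed over the sgRNAs of a gene, by 0.65 and 0.80. The sgRNA epikol_v2_3904 had 1926, 2010 and 1934 normalised counts in DMSO 1, 2 and 3, and 86253, 2615 and 9923 in Taxol 1, 2 and 3. Its DMSO values were nearly equal, and every Taxol library was above them, but by very unequal amounts. It was the third most abundant of all sgRNAs in Taxol 1, ranked 23 in Taxol 3 and 121 in Taxol 2. Its log2 difference of 2.74 ± 0.99 (SE) was the second highest of all 7855 sgRNAs, with an adjusted p of 0.967 by limma. Against AP, where it had 1238 and 2107 counts on that table's scale, the difference was 3.13 ± 1.38 (SE). It was already abundant before growth, ranked 25 in AP 3. Another MYSM1 sgRNA, epikol_v2_3907, followed the same order of libraries, with 3607, 309.9 and 710.9 counts in Taxol 1, 2 and 3. In the opposite direction, the MYSM1 sgRNA epikol_v2_3905 had 386.4 and 193.1 counts in AP and 95.8, 149.0 and 139.0 in Taxol, a difference of -1.11 ± 0.51 (SE).

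USP3, which removes ubiquitin from H2A and H2B and acts in the DNA damage response, had the highest gene mean difference of the members in Taxol against DMSO, while by limma-voom on summed reads it was at 0.17, below MYSM1 and USP11. It stood at 9.22, 8.21 and 8.51 in Taxol 1, 2 and 3 and at 8.29, 8.26 and 8.05 in DMSO 1, 2 and 3. Taxol 1 and 3 were above all DMSO libraries, and Taxol 2 was within them. The difference was 0.44 ± 0.23 (SE), with an adjusted p of 0.839 by limma. The exact RRA p for a shift upwards was 0.0219 (adjusted p = 0.549). Without Taxol 1 the difference was 0.16, and without its highest sgRNA 0.25. Its highest sgRNAs were epikol_v2_6913 and epikol_v2_6916 (2.15 and 1.66), while the others ran from -0.32 to 0.61. The sgRNA epikol_v2_6913 had 143.2, 138.6 and 247.4 counts in DMSO and 1975, 217.2 and 1010 in Taxol, a difference of 2.15 ± 0.76 (SE, adjusted p = 0.967). Its Taxol 2 value lay within the DMSO range. Against AP, USP3 differed by 0.72 ± 0.27 in Taxol (SE, adjusted p = 0.156) and by 0.23 ± 0.22 in DMSO (SE, adjusted p = 0.551), and by limma-voom on summed reads by 0.18 and 0.033. The level of the non-targeting sgRNAs shifted by 0.53 in Taxol against AP and by 0.31 in DMSO against AP. The highest USP3 sgRNA in DMSO against AP was another one, epikol_v2_6917, with 215.6 and 539.1 counts in AP and 1909, 2026 and 347.1 in DMSO, a difference of 1.69 ± 0.77 (SE).

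USP16, an H2A deubiquitinase active around mitosis, and USP21, another enzyme of H2A, had differences close to 0 in the gene means of all 3 comparisons. USP16 had 8.75, 8.87 and 9.27 in Taxol and 8.81, 9.27 and 9.22 in DMSO, a difference of -0.13 ± 0.24 (SE, 95% interval -0.62 to 0.35). Against AP it differed by 0.17 ± 0.22 in DMSO and by 0.08 ± 0.23 in Taxol (SE). USP21 was at 7.58, 8.08 and 7.99 in Taxol and at 8.42, 7.77 and 7.69 in DMSO, where DMSO 1 was high and the other DMSO libraries lay inside the Taxol range. Its difference was -0.08 ± 0.23 (SE, 95% interval -0.54 to 0.38), and against AP -0.05 ± 0.25 in DMSO and -0.08 ± 0.22 in Taxol (SE). By limma-voom on summed reads, scaled to the total reads of each library, the values were further from 0. The shift of all genes on that scale was not computed, so these values stand without a background. USP21 was then at -0.65 in Taxol against DMSO and at -0.88 in Taxol against AP (adjusted p = 0.511 and 0.243), and USP16 at -0.44 and -0.34 (adjusted p = 0.588 and 0.677).

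USP12 and USP46 are close relatives that need the cofactor UAF1 for activity and have been described as deubiquitinases of H2A and H2B. USP12 differed by 0.04 ± 0.24 in Taxol against DMSO (SE), and its 10 sgRNAs ran from -0.69 to 1.15. USP46 had a mean difference of 0.00 ± 0.24 (SE), with levels of 9.39, 8.93 and 9.08 in Taxol 1, 2 and 3 and of 8.98, 9.34 and 9.09 in DMSO. Its sgRNAs nevertheless ran from -1.56 to 1.70, an SD between sgRNAs of 1.05 beside a median of 0.64 over all genes. This is where RRA and the gene mean parted, since RRA listed USP46 as lower with an exact p of 0.0198 (adjusted p = 0.820). Its 2 lowest sgRNAs did not overlap between groups, which held in the lower direction for 4.26% of all sgRNAs. For epikol_v2_6946 the counts were 796.9, 497.4 and 1266 in DMSO and 364.4, 305.4 and 176.1 in Taxol, a difference of -1.56 ± 0.63 (SE). For epikol_v2_6943 they were 1916, 3032 and 1235 in DMSO and 834.3, 619.8 and 620.6 in Taxol, a difference of -1.49 ± 0.64 (SE). Both were higher in DMSO than in AP, a comparison that shares the DMSO libraries by which they were picked as lowest. In Taxol against AP, epikol_v2_6943 was at 0.26 ± 0.53 and epikol_v2_6946 at -0.11 ± 0.53 (SE). In DMSO against AP epikol_v2_6943 was the highest of all member sgRNAs, with 873.9 and 752.8 counts in AP and 2566, 4338 and 1661 in DMSO, a difference of 1.70 ± 0.58 (SE, adjusted p = 0.727).

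At the other end of USP46 stood epikol_v2_6941. It had 643.5, 352.9 and 286.3 counts in DMSO and 8542, 429.8 and 611.8 in Taxol, so that Taxol 1 alone was outside the DMSO range. The difference was 1.70 ± 0.96 (SE), and 0.35 without Taxol 1. In Taxol against AP it was 2.64 ± 1.15 (SE), and 1.29 without Taxol 1. The USP46 sgRNA epikol_v2_6944 was among the lowest of that comparison, at -1.13 ± 0.56 (SE). As a gene, USP46 differed from AP by 0.34 ± 0.22 in DMSO and by 0.39 ± 0.22 in Taxol (SE, adjusted p = 0.371 and 0.277), and RRA gave an exact p of 0.00816 for a shift upwards in DMSO (adjusted p = 0.344).

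USP15, a regulator of TGF-beta and other signalling, had the lowest gene mean difference of the members in Taxol against DMSO, while by limma-voom on summed reads USP36, USP44 and USP21 were below its -0.55. Its levels were 9.12, 10.01 and 9.14 in DMSO 1, 2 and 3 and 9.17, 8.78 and 8.75 in Taxol 1, 2 and 3. DMSO 2 was high, and Taxol 1 lay between the DMSO libraries, so that the groups overlapped. The difference was -0.53 ± 0.26 (SE), a ratio of 0.695, with an adjusted p of 0.768 by limma. Of 10 sgRNAs 8 were lower. Without DMSO 2 it was -0.23, and no member was then past an adjusted p of 0.05 either. In 1 of its sgRNAs, epikol_v2_6866, the groups were separated (4.26% of all sgRNAs in the lower direction). It had 772.8, 590.1 and 716.2 counts in DMSO and 375.7, 300.9 and 217.9 in Taxol, a difference of -1.24 ± 0.58 (SE). In DMSO against AP, USP15 was at 9.67 and 9.36 in AP and at 9.54, 10.53 and 9.57 in DMSO, a difference of 0.36 ± 0.27 (SE) that was 0.04 without DMSO 2. Of its 10 sgRNAs 3 were separated upwards there, epikol_v2_6863, epikol_v2_6865 and epikol_v2_6870, as were 11.2% of all sgRNAs. The highest, epikol_v2_6865, had 271.0 and 281.4 counts in AP and 539.2, 1476 and 867.0 in DMSO, with a difference of 1.67 ± 0.65 (SE, adjusted p = 0.727). In Taxol against AP the gene differed by -0.12 ± 0.22 (SE).

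USP17L2 was the highest member in DMSO against AP. It stood at 8.66 and 8.97 in AP 1 and 3 and at 9.55, 9.80 and 9.40 in DMSO 1, 2 and 3, with no overlap. The difference was 0.77 ± 0.22 (SE), a ratio of 1.70, with an adjusted p of 0.0687 by limma. All 10 sgRNAs were higher, by 0.01 to 1.35, and the non-targeting sgRNAs had a median of 0.43 on the same scale. The exact RRA p was 0.0315 (adjusted p = 0.469). The Taxol libraries stood at 9.42, 8.88 and 9.15 beside 8.27 and 8.59 in AP, a difference of 0.72 ± 0.22 (SE, adjusted p = 0.115), with 9 of 10 sgRNAs higher, and 0.18 by limma-voom on summed reads. Between Taxol and DMSO the difference was -0.09 ± 0.24 (SE). The gene belongs to a family of near-identical copies, the DUB-3 group, so that its sgRNAs may cut at more than 1 copy, and values assigned to it are uncertain in that respect.

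USP11, a deubiquitinase of the DNA repair machinery, differed by 0.21 ± 0.24 in Taxol against DMSO, by 0.18 ± 0.23 in DMSO against AP and by 0.44 ± 0.22 in Taxol against AP (SE, adjusted p = 0.909, 0.639 and 0.231). Its sgRNA epikol_v2_6843 was the most abundant of the members in Taxol 3, with 11455 counts beside 531.1 and 925.2 in Taxol 1 and 2. Its sgRNA epikol_v2_6848 was among the 3 lowest in DMSO against AP, with 731.3 and 423.9 counts in AP and 205.5, 304.2 and 215.6 in DMSO, a difference of -1.22 ± 0.64 (SE).

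At the level of single sgRNAs, limma over all 7855 called no member at an adjusted p under 0.05 in any comparison, and 0% of all sgRNAs. At an unadjusted p under 0.05, 3 member sgRNAs were lower and 4 higher in Taxol against DMSO (background 1.55% and 2.01%, or 2.31% and 3.08% of the members). Of the 130 sgRNAs 12 were lower by at least 1 log2 unit and 12 higher (background 6.16% and 8.29%), and 8 and 5 were separated between groups (4.26% and 4.76%). By sign, 67 were below 0 and 63 above (47.8% and 52.2% of all sgRNAs). In DMSO against AP, 1 was lower and 7 higher unadjusted (3.65% and 3.21%), 8 were lower and 18 higher by at least 1 log2 unit (8.56% and 10.8%), and 52 were below 0 and 78 above (43.2% and 56.8%). The groups were separated for 10 lower and 18 higher sgRNAs (12% and 11.2%). In Taxol against AP the counts were 1 and 4 unadjusted (3.9% and 2.24%), 4 and 22 by at least 1 log2 unit (6.51% and 14.9%), 55 and 75 by sign (42.2% and 57.8%), and 14 and 20 separated (13.6% and 12.4%). The SD between the sgRNAs of a gene had a median of 0.74 over the 13 genes in Taxol against DMSO, beside 0.64 over all genes, and was 0.62 beside 0.65 in DMSO against AP.

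Some member sgRNAs were far higher in 1 library than in the others of its group. In the Taxol group, 11 member sgRNAs were at least 4-fold higher in Taxol 1 than in either other library, 0 in Taxol 2 and 7 in Taxol 3. For all sgRNAs these shares were 7.00%, 1.44% and 3.60%, and for the members 8.46%, 0% and 5.38%. The 18 member sgRNAs came from 12 of the 13 genes, all but USP21, and the steepest was the USP46 sgRNA epikol_v2_6941 at 14.0-fold over the next library. In the DMSO group 11 such sgRNAs had their peak in DMSO 2, 8.46% of the members and 4.11% of all sgRNAs, and 4 of these 11 were from USP36. Of the 13 genes 9 had their highest DMSO level in DMSO 2, as did 49.7% of all genes. The part of these single-library values in the differences above was not tested beyond leaving out each library in turn.

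USP22, the H2B deubiquitinase of the SAGA complex, gives the scale of a gene that was called in the same tables. It was higher in Taxol than in DMSO by 1.54 ± 0.26 (SE, adjusted p = 0.000405) with 9 of 10 sgRNAs, and than in AP by 1.78 ± 0.27 (SE, adjusted p = 0.0135) with all 10. No gene was called in Taxol against DMSO without DMSO 1 or by limma-voom, nor in Taxol against AP by limma-voom or without AP 1, AP 3, Taxol 1 or Taxol 3. Its cofactors in SAGA were at 0.52 ± 0.24 (ATXN7L3, SE, adjusted p = 0.748) and 0.04 ± 0.22 (ENY2; SE) in Taxol against DMSO. BAP1, the H2A deubiquitinase of the PR-DUB complex, differed by -0.29 ± 0.23 from DMSO and by -0.70 ± 0.24 from AP in Taxol (SE, adjusted p = 0.872 and 0.135), and RRA called it lower in the latter (adjusted p = 0.0198). The members ran from -0.53 (USP15) to 0.44 (USP3) in Taxol against DMSO, and no test of the difference between them and USP22 was made. Of 25 listed deubiquitinases and cofactors outside the members 10 were measured, and limma called 1 of them, USP22, in each comparison with Taxol and 0 in DMSO against AP. Unadjusted, the 10 gave 0 lower and 2 higher in Taxol against DMSO, 0 and 1 in DMSO against AP, and 1 and 4 in Taxol against AP.

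The enzymes that write the marks were also in the library. Of 30 listed ligases, conjugating enzymes and partners for ubiquitin on H2A and H2B, 28 were measured. Limma called 0 of 28 in every comparison, and at an unadjusted p under 0.05 there were 0 lower and 1 higher in Taxol against DMSO, 2 and 2 in DMSO against AP, and 1 and 3 in Taxol against AP. RRA called 1, BRCA1, which with BARD1 ubiquitinates H2A, as lower in Taxol against AP (-0.79 ± 0.24 SE, RRA adjusted p = 0.00995, limma adjusted p = 0.107). The medians of the 28 genes were -0.04, 0.23 and 0.19 in Taxol against DMSO, DMSO against AP and Taxol against AP. By role, the 6 members listed under H2A, some of which also act on H2B, had medians of 0.02, 0.22 and 0.34 in the same order. The 4 listed under H2B, USP7, USP36, USP44 and USP49, had medians of -0.09, 0.16 and -0.0012, beside 0.03, 0.15 and 0.20 for all genes.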

How the data were processed

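The authors deposited, for each of 3 comparisons, an sgRNA table made with MAGeCK 0.5.8 (per the submitters' processing notes) whose cells join normalised counts of 3 libraries, and these deposited values, a signal scaled separately in each table, were used. Trimming and mapping options and a genome build are not given in the sources used here. The deposited fold changes, scores and p-values per sgRNA and the deposited gene tables are the authors' comparisons and were not used. Labels exist for AP 1 and AP 3, whereas each AP cell has 3 values. Values 1 and 3 of the cell were assumed to be AP 1 and AP 3, since the table names number them in that order, and the same order was assumed for DMSO and Taxol. The second AP value was left out (2 joined value columns). One header line listed as an sgRNA was dropped from each table.

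Values were whole multiples of a step per library, which gave the reads (98.98% to 99.99% whole within 0.1 read). Counts vary by PCR as well as by sampling. Genes were compared within a table by limma 3.58.1 in R 4.3.3 (lmFit, eBayes with trend, two-sided) on the mean over sgRNAs of log2(normalised count + 1), a scale that understates changes of low counts, with no covariate, no filter and Benjamini-Hochberg adjustment over all 779 genes. Intervals are at 95%. RRA, the gene test of the study, was computed on sgRNAs ranked by the moderated statistic, within the lowest or highest 25% of ranks, one-sided, with an exact p under uniform ranks. Single sgRNAs were tested by limma over 7855. Scripts were tested on simulated data.

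The members and gene lists were chosen with earlier results of these data known. Named were, in each comparison, the 3 lowest and 3 highest members, those past an unadjusted p of 0.05, USP7, USP16, USP3, USP21, MYSM1, USP44 and USP36 always, and the 3 lowest and 3 highest member sgRNAs with a mean of at least 50 normalised counts. Other sgRNAs and genes in the text were chosen after their values were seen. Same-numbered Taxol and DMSO libraries deviated together over genes (r = 0.19, 0.15 and 0.22 for numbers 1, 2 and 3, and -0.13 to -0.05 for others). These numbers were taken as pairs only in the replicate block, a pairing that comes from the data and the assumed order. The main tests had no covariate and did not use the pairs. Alternatives were a pseudocount of 10, a filter at 50 normalised counts, centring on non-targeting or on all sgRNAs, medians over sgRNAs, the replicate block and leaving out each library. Limma-voom on recovered reads, and leaving out the sgRNA with the largest change of each gene, were added after seeing the data. Limma-voom was scaled to total reads over the genes, not by the deposited scaling. Totals of normalised counts were 3962732 and 3960072 in AP 1 and 3. In Taxol 1, 2 and 3 of the same comparison they were 8946644, 4996522 and 6505197. On total reads the zero therefore lies higher in Taxol against AP, by an amount that was not computed.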

Additional observations from a re-analysis of the deposited data

How the results depend on the processing

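Under all alternatives run, member calls stayed at 0 in Taxol against DMSO, and the named sgRNAs kept their sign and side of the threshold (186 values). Those sgRNAs were picked as the lowest and highest on these same values, and none passed as reported, so this says little. Of 520 alternative values of member genes 444 kept their sign and side of the threshold, 8 passed the threshold and 68 changed sign, most of them small differences. With the replicate block, 2 members passed in DMSO against AP (USP7 at -0.90 and USP17L2 at 0.66), where 67 of all 779 genes passed. In Taxol against AP 3 members passed (MYSM1 at 1.29, USP17L2 at 0.86 and USP3 at 0.94), where 64 of all 779 genes passed. AP 2 was not used, so this block takes no value from DMSO 2 or Taxol 2. AP libraries did not deviate with their number (r = -0.03 against DMSO and -0.01 against Taxol, over 2 shared numbers), and there the numbers are only names. The block changed no other member call. The block also gave, in DMSO against AP, USP11 -0.030, USP21 0.013, USP36 -0.15 and USP44 -0.22. Centred on non-targeting sgRNAs, 1 member passed in Taxol against AP (USP7), where 154 of all 779 genes passed. With this centring the member medians became -0.10 in DMSO against AP and -0.23 in Taxol against AP. The values that changed sign were USP12 -0.13 and USP46 -0.17 in Taxol against DMSO, then USP11 -0.13, USP12 -0.10, USP16 -0.14, USP3 -0.078, USP36 -0.16 and USP44 -0.14 in DMSO against AP, and USP11 -0.087, USP12 -0.23, USP16 -0.45, USP36 -0.44, USP46 -0.14 and USP49 -0.15 in Taxol against AP. With medians over sgRNAs the member median in Taxol against AP was -0.033, and sign changes were USP46 -0.042 in Taxol against DMSO, USP11 -0.056, USP36 -0.045 and USP44 -0.051 in DMSO against AP, and USP16 -0.13, USP36 -0.051 and USP49 -0.033 in Taxol against AP. With limma-voom on recovered reads that median was -0.18, with USP12 -0.052 and USP46 -0.11 in Taxol against DMSO, USP12 -0.14 and USP16 -0.060 in DMSO against AP, and USP12 -0.18, USP16 -0.34, USP36 -0.78 and USP49 -0.12 in Taxol against AP. Without the sgRNA with the largest change of each gene the median was 0.14, with USP12 -0.088, USP17L2 0.012, USP21 0.061 and USP46 -0.19 in Taxol against DMSO, USP21 0.070 in DMSO against AP, and USP16 -0.11 and USP36 -0.0050 in Taxol against AP. A pseudocount of 10 gave USP46 -0.00088 in Taxol against DMSO. Centring moved all genes of a comparison by the same amount, and limma-voom used another zero, that of total reads. What else contributed to these changes was not tested.

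Leaving out 1 library at a time gave 0 to 1 member calls in each comparison with AP (USP7 without DMSO 2, MYSM1 without Taxol 2). Over all 779 genes, 33 were called in DMSO against AP without DMSO 2, and 9 in Taxol against AP without Taxol 2. In Taxol against DMSO the ranges that crossed 0 were -0.12 to 0.14 for USP12, -0.21 to 0.15 for USP21, -0.13 to 0.11 for USP46, -0.27 to 0.17 for USP36, -0.51 to 0.053 for USP44, -0.26 to 0.018 for USP49 and -0.22 to 0.044 for USP17L2. In DMSO against AP they were -0.26 to 0.10 for USP21, -0.030 to 0.29 for USP11, -0.15 to 0.32 for USP36 and -0.22 to 0.39 for USP44. In Taxol against AP they were -0.27 to 0.034 for USP15, -0.18 to 0.074 for USP21, -0.063 to 0.24 for USP36 and -0.079 to 0.21 for USP16. Over all 779 genes, calls ranged from 0 (without DMSO 1, and with limma-voom) to 4 (without Taxol 2) in Taxol against DMSO (1 as reported, 3 by RRA and with the block), from 0 (limma-voom, and without AP 1, AP 3 or DMSO 1) to 67 (replicate block) in DMSO against AP (17 as reported), and from 0 to 154 (centred on non-targeting sgRNAs) in Taxol against AP (1 as reported, 47 by RRA, 64 with the block). The planned tests by edgeR and DESeq2 were not run, as the deposited columns join several libraries in a cell and are not counts as deposited, and limma-voom on the recovered reads took their place. Depth limits mainly Taxol 2 and 3, where member sgRNAs had medians of 164 and 207 reads.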
